A study of Mus musculus with 103 samples.

Results

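The serpin gene family was described across the mouse arrays of the series, 40 from sorted cells, 56 from primary tumours and 7 from metastases. The members are all genes on the array whose symbol is Serpin followed by a clade letter from a to i and a number, less 1 gene that the rule leaves out. There were 39 such genes among the 17097 genes with a probe set of their own, and each was read from its probe set with the highest mean. By clade, 14 genes belong to clade A, 17 to clade B, 2 each to clades F and I, and 1 each to clades C, D, G and H. RefSeq lists 68 mouse genes that the rule would take, so 29 were not analysed here. Of the 39 genes, 14 lie on chromosome 12, 10 on chromosome 13 and 8 on chromosome 1.

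The study traced and oncogenically targeted cells that express Prom1, the gene of the surface protein prominin-1, in organs of the mouse. Tumours were dissected: 14 tumours labelled as hepatocellular carcinoma/cholangiocarcinoma (HCC/CC), 2 hepatoblastomas, 8 prostatic adenocarcinomas, 4 gastric adenocarcinomas, 7 gastric adenomas, 3 small intestinal adenomas, 5 large intestinal adenomas, 3 uterine carcinomas, 2 bronchopulmonary adenocarcinomas (lung adenocarcinomas below), 8 squamous cell carcinomas (4 perineal, 3 perioral, 1 periorbital) and 7 metastases. Prom1-positive cells were sorted with magnetic beads from the liver of mice given DDC, a compound that injures the liver (9 samples), from neonatal liver (3), and from untreated liver (5), kidney (4), lung (4), prostate (3), salivary gland (3), small intestine (3), stomach (2) and uterus (4). The labels give neither genotype nor age beyond neonatal, and separate animals are not stated, so that p-values cover only the spread between the samples at hand, which may be technical. Tumour RNA and sorted-cell RNA were extracted with different kits, so extraction and dissection cannot be told apart from tumour against sorted cells.

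Serpins are proteins of one fold that mostly inhibit proteases: the target protease cuts an exposed loop of the serpin and is trapped in a covalent complex. Clade A and the small clades C, D, F and G are largely secreted plasma proteins made by hepatocytes, and mice carry tandem copies of the antitrypsin gene where humans have 1. Clade B serpins lack a classical signal peptide, stay largely inside cells, and are known from squamous epithelium and from white blood cells that handle granule proteases.

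The promoters of the antitrypsin copies are shown first because the copies differed in where they were high. Promoter sequences from RefSeq (GRCm38.p6) were on hand for 33 of the 39 genes. The stretches below run 5′ to 3′ just before the annotated start of each gene, on the minus strand of chromosome 12, and capitals mark the letters GTTAAT, a core of sites bound by the hepatocyte factor HNF1.
Serpina1a (chr12:103863625-103863714): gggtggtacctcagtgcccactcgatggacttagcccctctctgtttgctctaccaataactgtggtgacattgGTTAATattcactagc
Serpina1b (chr12:103738200-103738289): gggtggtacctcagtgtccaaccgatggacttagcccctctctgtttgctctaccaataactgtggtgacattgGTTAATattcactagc
Serpina1c (chr12:103904962-103905051): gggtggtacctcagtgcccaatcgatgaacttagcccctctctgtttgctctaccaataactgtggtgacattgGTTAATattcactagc
Serpina1d (chr12:103773634-103773723): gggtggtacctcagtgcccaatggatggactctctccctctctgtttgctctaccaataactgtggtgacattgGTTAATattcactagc
Serpina1f (chr12:103695530-103695619): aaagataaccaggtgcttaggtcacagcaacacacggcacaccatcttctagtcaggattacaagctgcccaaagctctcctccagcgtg
The stretches of Serpina1a, Serpina1b, Serpina1c and Serpina1d matched each other at 92.2% to 97.8% of 90 bases. The stretch of Serpina1f, the fifth antitrypsin copy measured, holds no such letters. Both strands of the 250 bases before the start were searched, and a gene with several promoters counted when any held a match. GTTAAT was found in 7.49% of 27025 mouse genes and in 6 of the 33 serpin genes, which are these 4, Serpinb8 and Serpini2.

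Windows around a second motif are shown for clade B genes of chromosome 1, plus strand, because genes of that cluster were high in squamous cell carcinomas. Capitals mark TGANTCA, where N is any base. AP-1, a transcription factor of Jun and Fos proteins, is known to bind TGAGTCA and TGACTCA. Of the windows below, only those of Serpinb7 and Serpinb8 hold either of these, and the others hold TGAATCA or TGATTCA. Serpinb11 has a further TGANTCA match 76 bases before its start, outside the window shown.
Serpinb5 (chr1:106861013-106861063): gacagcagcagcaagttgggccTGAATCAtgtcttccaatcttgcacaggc
Serpinb12 (chr1:106934382-106934432): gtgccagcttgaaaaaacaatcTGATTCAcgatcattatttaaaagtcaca
Serpinb11 (chr1:107362111-107362161): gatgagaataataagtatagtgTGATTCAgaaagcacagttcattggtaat
Serpinb7 (chr1:107422622-107422672): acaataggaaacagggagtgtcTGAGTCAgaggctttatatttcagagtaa
Serpinb2 (chr1:107511307-107511357): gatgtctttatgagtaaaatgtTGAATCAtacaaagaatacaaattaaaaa
Serpinb8 (chr1:107589961-107590005): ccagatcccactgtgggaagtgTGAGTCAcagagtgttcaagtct
The wider TGANTCA was found in the promoters of 6 of the 7 clade B genes of chromosome 1, Serpinb3a being the exception. It was found in 0 of the 9 of chromosome 13. TGANTCA was also found in Serpina1a to Serpina1d, and in 7.82% of all 27025 genes with a promoter. Both motifs were picked after the sequences were seen. A match describes the letters only.

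Values are log2 levels as deposited, so a difference of 1 is a doubling, and a level is compared only with the level of the same gene in other samples. A gene was tested in a comparison when its mean in a compared group passed the 40th percentile of group means, which lay between 4.02 and 4.3. A gene was called higher or lower at an adjusted p under 0.05 and a log2 difference of at least 1 (limma, Benjamini-Hochberg over all genes tested). Array medians lay between 3.82 and 4.24. RNA quality was read from actin, as the log2 level of its 3′ less that of its 5′ probe set, which was 1.67 to 1.80 in kidney cells and 1.05 to 1.73 in untreated liver cells, against 0.41 to 1.39 in the other sorted groups. The closest 2 arrays correlated at r = 0.993, so no library was taken for a repeat of another. Several defining marker lists followed the labels. The kidney tubule list was at 12.9 in kidney cells and the hepatocyte list at 11.34 to 11.99 in primary liver groups. The keratinocyte list was at 11.7 to 12.1 in squamous groups. One exception was Prom1 itself, at 2.64 to 4.24 in the 5 untreated liver samples, against 3.31 to 9.31 in DDC and 10.23 to 10.38 in neonatal liver cells. Prostatic adenocarcinomas 1, 2 and 5 had prostate and seminal vesicle lists of only 3.24, 3.67 and 3.70. Tumour 2 of these had an enterocyte list of 9.36, against 3.61 to 4.97 in the others. The kidney tubule list was at 5.88 and 6.98 in HCC/CC samples 5 and 11, against 2.64 to 2.93 in the other HCC/CC primaries. Untreated liver samples 1 and 2 stood apart in their endothelial lists, at 9.76 and 9.80, against 5.81 to 7.02 in samples 3 to 5. Their macrophage lists were at 9.21 and 10.4, against 7.59 to 8.37, and results that rest on untreated liver cells are given below with and without them. In bulk samples, fewer cells of a type and less RNA per cell cannot be told apart.

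Over the 22 groups that are not metastases, 3 serpin genes had a mean above 4.3 in every group: Serpinb6a and Serpinb9, which inhibit granule and lysosomal proteases, and Serpinh1, the collagen chaperone of the endoplasmic reticulum. Another 29 passed that level in some groups, and 7 in none. The widest spans of group means lay in clade A and clade C: Serpina1c ran between 13.6 in untreated liver cells and 2.85 in prostate cells, and Serpinc1, antithrombin, between 12.98 in neonatal liver cells and 2.95 in perioral squamous cell carcinoma. In the other roles the widest spans were those of Serpina4-ps1 (8.72), Serpina3n (6.77), Serpinb5 (8.88), Serpinb1a (7.64), Serpinb2 (7.81), Serpinf1 (8.38) and Serpini2 (0.85). Among the genes above 4.3 in at least 1 group, 15 have their highest group mean in a liver group and 8 in a squamous group. Serpina3a, Serpina3i, Serpina5, Serpinb9c, Serpinb9d and Serpini2 passed the filter in no comparison. Of the 20 comparisons below, all share a group with at least 1 other, so their counts are not independent.

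**Figure D1:**
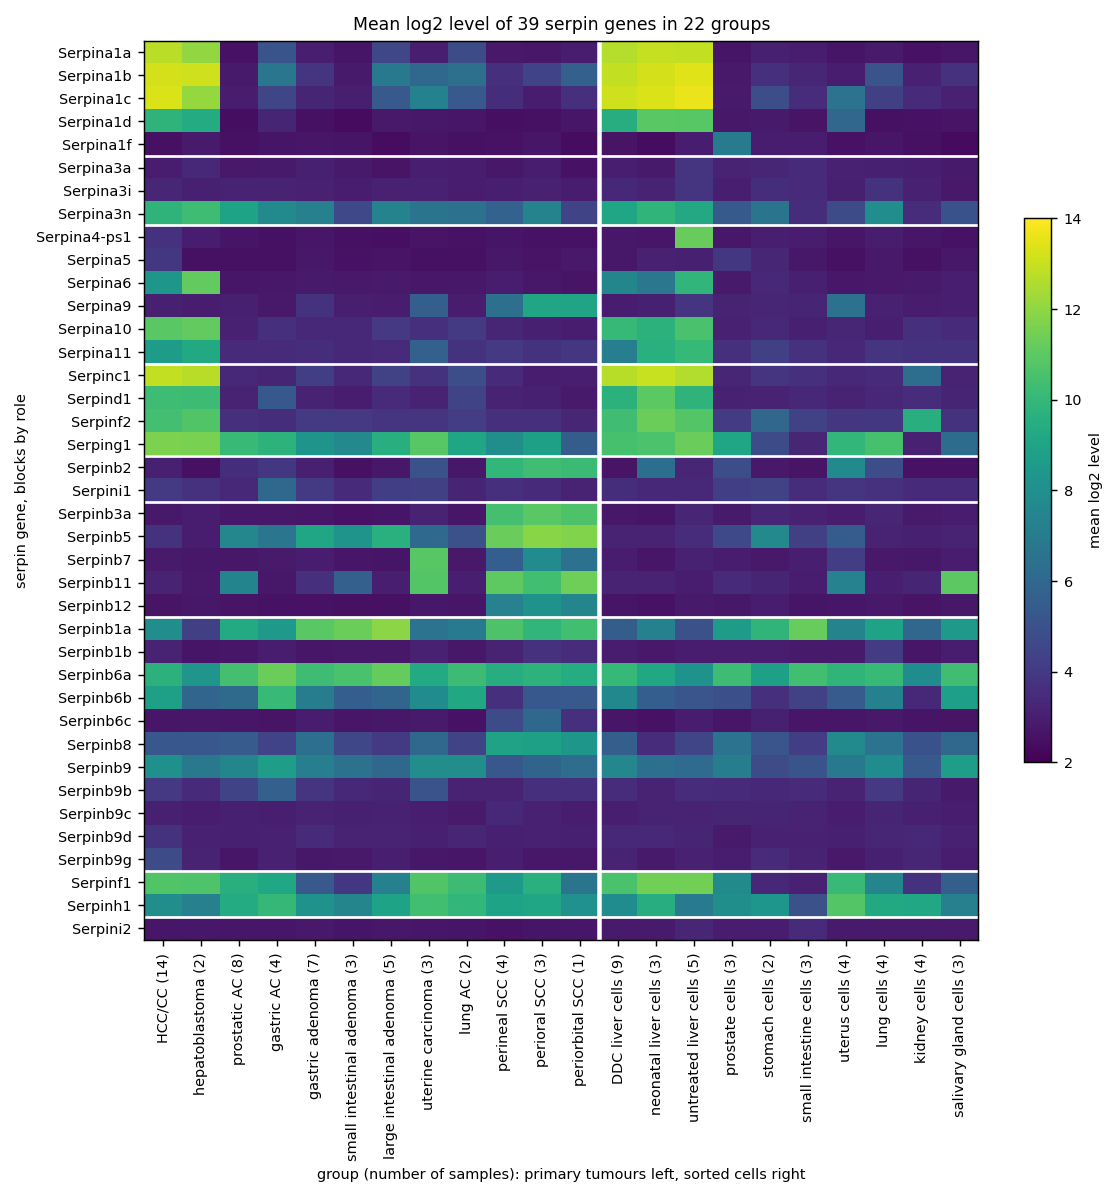
Mean log2 level of each of the 39 serpin genes (rows, in blocks by role) in 22 groups (columns, number of samples in brackets; primary tumours left, sorted cells right). Colours are to be read along a row. The rows of Serpina1a to Serpina1d and of the inhibitors of clotting, plasmin and complement are bright in the 5 liver groups, Serpina1f is bright in prostate cells alone, and Serpinb3a and Serpinb12 are above 7 in the squamous groups and below 3.4 elsewhere.

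Sorted cells of each organ were first set against the mean of the other 7 organs, each organ weighted equally. In untreated liver cells, 14 of the 28 serpin genes tested were higher and 5 lower, while 10.1% of all 13051 genes tested were higher and 18.3% lower. The median log2 difference was 2.09 over the 28 genes and -0.29 over all genes. All 4 inhibitors of clotting, plasmin and complement were higher, as were 4 of 5 antitrypsins and 4 of 5 tested hormone carriers and other clade A genes.
Serpina1a, an antitrypsin that inhibits neutrophil elastase, stood at 12.83, 12.35, 13.22, 13.02 and 13.16 in liver cells, against 2.53, 2.73 and 3.34 as lowest, median and highest of the 23 other samples. Serpina1d, another copy, stood at 10.44, 10.13, 11.55, 11.05 and 11.21 in liver cells, against 2.36, 2.70 and 7.28 elsewhere. Liver samples lay above all others for both genes, and the highest other Serpina1d values were those of uterus cells.
Serpinc1, which inhibits thrombin and factor Xa, stood at 12.27, 11.58, 13.19, 13 and 12.97 in liver cells, against 2.97, 3.42 and 6.86 in the others. The difference was 8.73 (SE 0.26, adjusted p = 7.38e-25). The highest other values were the 4 kidney samples.
Serpina4-ps1, whose name marks it as a pseudogene, stood at 9.74, 9.06, 12.86, 11.91 and 12.46 in liver cells, against 2.51, 2.78 and 3.33 in the others, a difference of 8.38 (SE 0.30, adjusted p = 3.16e-22). Its liver values lay far above every other organ, and samples 1 and 2 were the lowest of the 5. Serpina1b and Serpina1c differed by 9.88 and 9.55, and the other 8 higher genes by 3.98 (Serpina3n) to 7.27 (Serpina10, an inhibitor of factor Xa).
The 5 lower genes were Serpinb1a, which inhibits neutrophil elastase, at -3.67, then Serpinb11, Serpinb6a, Serpinb8 and Serpinh1. Serpinb11 stood at 2.68 to 3.22 in liver cells and below 4 in every other organ but salivary gland and uterus. High values in these 2 organs lifted the mean that Serpinb11 was set against. Serpinh1, at -1.32, lost its call when any 1 of untreated samples 3, 4 or 5 was left out. Without untreated samples 1 and 2, 15 of 29 serpin genes were higher and 7 lower, beside 11.8% and 26% of all genes. Of the protease and partner genes, 20 of 42 tested were higher and 7 lower in liver cells, led by Plg (plasminogen, 8.81), Vtn (vitronectin, 8.46) and F2 (prothrombin, 8.42).

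Because liver is so high for plasma serpins, it pulled up the mean that the other organs were set against. The comparisons of the other organs are therefore given with liver among the reference organs and, as an alternative chosen after seeing the data, without it. Without liver, Serpina1a, Serpina4-ps1, Serpina6, Serpina10 and Serpind1 passed the filter in none of the remaining 7 organs and were not tested, so that 23 serpin genes were left. Of all 12859 genes tested without liver, 16.5% were higher and 18.4% lower in kidney, and 13.1% and 20.6% in lung. These shares were 10.1% and 7.51% in prostate, 10.3% and 9.85% in salivary gland, and 14% and 16% in small intestine cells. They were 8.37% and 10.4% in stomach and 14.7% and 6.93% in uterus cells.

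In kidney cells, 3 of 28 serpin genes were higher and 15 lower, beside 16.4% and 17.3% of all genes, and without liver 2 were higher and 10 lower. Serpinf2, the plasmin inhibitor alpha-2-antiplasmin, stood at 9.65, 9.50, 9.56 and 9.49 in kidney cells, and the difference was 4.29 (SE 0.43, adjusted p = 2.09e-10), or 5.21 without liver. No other organ but liver reached these values. Serpinc1 stood at 6.86, 6.39, 6.11 and 6.02 in kidney cells, 1.58 higher (SE 0.28, adjusted p = 1.77e-05) and 2.88 higher without liver. Serping1, the inhibitor of complement C1, stood at 2.85, 3.55, 3.14 and 2.88, the lowest of the 8 organs together with small intestine cells, a difference of -4.76 (SE 0.45). Serpinb6b stood at 3.24, 3.14, 3.46 and 3.53 in kidney cells, below all 24 other samples, whose lowest was 3.55 and median 5.37. Serpinb1a, Serpina3n and Serpinf1 were also lower, with differences of -2.53, -2.55 and -3.22, though another probe set of Serpinf1 gave -1.82. The calls of Serpinh1 as higher (1.23) and Serpina6 as lower (-1.09) were lost when any 1 kidney sample, or one of several samples of other organs, was left out. The fibroblast list averaged 3.2 in kidney cells and the macrophage list 4.5, and their part in these differences was not tested. Among partners, 10 of 42 were higher and 17 lower, led by Klk1 (a kallikrein, 4.70), Proc (protein C, 4.31) and Prss8 (prostasin, 3.95).

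In lung cells, 6 of 28 serpin genes were higher and 9 lower, beside 12.9% and 18.7% of all genes, and without liver 8 were higher and 3 lower. Serping1 stood at 11.64, 10.99, 8.95 and 10.50, a difference of 3.71 (SE 0.45, adjusted p = 3.83e-08). Serpina3n, an acute phase gene of the antichymotrypsin group, stood at 8.71, 8.46, 5.64 and 8.65, a difference of 2.41 (SE 0.51, adjusted p = 0.000199). Sample 3 was the lowest of the 4 for both genes, and also for Serpinb6b, Serpinb9, Serpinh1 and Serpina1b, and stood above the other 3 for the dim genes Serpina3i (4.81) and Serpinb9b (5.07). Its array median of 4.24 was the highest of all arrays, the next being 4.05, and 15 serpin genes were called with this sample and 15 without it. Serpinb6b (2.18), Serpinb9 (1.57), Serpinh1 (1.40) and Serpinb1b (1.27) were the other higher genes. Serpinh1 was not called without lung sample 1, 2 or 4, and Serpina6, called lower, without any 1 of the 4. Serpinb2, also known as plasminogen activator inhibitor 2, stood at 2.96, 2.69, 2.44 and 11.34 in the 4 lung samples. Sample 4 alone held the high value, and the group was not called (1.06, SE 0.82, adjusted p = 0.277). The macrophage list averaged 10.2 and the endothelial list 9.3 in lung cells, and their part was not tested. Among partners, 9 of 42 were higher and 13 lower, led by Klk1 (-6.25), Ctsk (cathepsin K, 4.57) and Tmprss2 (-4.41).

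In prostate cells, 2 of 28 serpin genes were higher and 8 lower, beside 10.5% and 7.29% of all genes, and without liver 3 were higher and 1 lower. Serpina1f, an antitrypsin copy known from the epididymis, stood at 4.33, 7.15 and 9.50, against 2.32, 2.75 and 3.12 as lowest, median and highest of the 25 other samples. All prostate samples lay above all others, though they spread widely, and the difference was 4.27 (SE 0.40, adjusted p = 1.3e-10). Serping1 stood at 10.64, 8.90 and 7.69, 2.06 higher (SE 0.51, adjusted p = 0.00227). That call was lost without prostate sample 1 (1.28, adjusted p = 0.117), and Serpina1d as lower without any 1 of the 3. Among partners, 8 of 42 were higher and 10 lower, led by Klk1 (-6.05) and the complement proteases C1s1 (4.29) and C1ra (4.02).

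In salivary gland cells, 3 of 28 serpin genes were higher and 9 lower, beside 10.9% and 9.62% of all genes, and without liver 3 were higher and 3 lower. Serpinb11, a clade B serpin of epithelia, stood at 11.01, 10.91 and 11.06, against 2.68, 3.16 and 8.24 in the 25 other samples. The difference was 7.25 (SE 0.22, adjusted p = 9.51e-25), and the only other organ with values above 4 was the uterus. Serpinb6b stood at 8.71, 8.85 and 8.81, against 3.14, 4.46 and 8.62, a difference of 3.93 (SE 0.50, adjusted p = 1.24e-07), and the salivary samples lay just above the highest lung sample. Serpinb9, which inhibits granzyme B, stood at 8.65, 8.82 and 8.75, 2.59 higher (SE 0.43). Serpina1b, Serpina1c and Serpina1f lost their lower calls without any 1 salivary sample. The macrophage list averaged 10.35 in salivary gland cells, and its part was not tested. Among partners, 8 of 42 were higher and 11 lower, led by Klk1 (5.53), Cela1 (-4.59) and Agt (angiotensinogen, a serpin kin without inhibitor function, 3.78).

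In small intestine cells, 1 of 28 serpin genes was higher and 16 lower, beside 14.3% and 15.2% of all genes, and without liver 1 was higher and 8 lower. Serpinb1a stood at 11.36, 11.27 and 11, against 3.99, 7.74 and 10.18 in the 25 other samples, a difference of 3.48 (SE 0.42, adjusted p = 1.99e-08). Serpinf1, pigment epithelium-derived factor, stood at 2.87, 3.15 and 3.22, against 3.32, 7.35 and 12.36. Serpinh1 stood at 5.46, 4.98 and 4.53, against 5.47, 9.12 and 11.33. Intestinal samples lay above all others for Serpinb1a and below all others for the other 2 genes, with differences of -4.00 (SE 0.60) for Serpinf1, whose other probe set gave -1.59, and -3.53 (SE 0.58) for Serpinh1. The fibroblast list averaged 3.9, with 4 of its 7 markers under the filter in all 3 samples. Its part in the low Serpinf1 and Serpinh1 values was not tested. Among partners, 8 of 42 were higher and 14 lower, led by the granzymes Gzma (6.22) and Gzmb (5.44) and by trypsin Prss2 (5.05). The T and NK list stood at 4.24, 5.51 and 4.49 in the same samples and the pancreatic acinar list at 10.01, 7.14 and 8.93, and their part in the granzyme and trypsin differences was not tested. Serpinb9 was lower in these cells (-1.54, SE 0.43), a call lost without intestinal sample 1, as were those of Serpina10, Serpina1c, Serpina4-ps1, Serpinb6b and Serpinf2, which left 11 of 17.

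In stomach cells, 2 of 28 serpin genes were higher and 7 lower, beside 9.12% and 10.1% of all genes, and without liver 2 were higher and 5 lower. Serpinb5, maspin, a clade B protein that does not inhibit proteases, stood at 8.01 and 7.32, against 2.80, 3.48 and 6.58 in the 26 other samples. Both stomach samples lay above the rest, and the difference was 3.75 (SE 0.35, adjusted p = 2.4e-10). Serpinb1a was 1.93 higher (SE 0.50) at 10.18 and 9.52, and was not called without stomach sample 1. Among the lower genes, Serpinb6b lost its call without either stomach sample, Serpinb9 without sample 1, and Serpina1a, Serpinc1 and Serping1 without sample 2. Among partners, 5 of 42 were higher and 10 lower, led by Cela1 (an elastase, 5.08), Ctss (-4.54) and Hgfac (4.24). The pancreatic acinar list stood at 8.95 and 5.32 in the 2 stomach samples, and its part in the Cela1 difference was not tested.

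In uterus cells, 10 of 28 serpin genes were higher and 8 lower, beside 15.3% and 7.41% of all genes, and without liver 11 were higher and 2 lower. Serpina9, which is known from human germinal-centre B cells, stood at 7.79, 6.07, 5.67 and 6.65, against 2.81, 3.09 and 5.01 in the 24 other samples, a difference of 3.31 (SE 0.24, adjusted p = 1.37e-13). Serpinh1 stood at 10.43, 10.72, 11.33 and 10.61, against 4.53, 7.98 and 9.84, a difference of 3.08 (SE 0.52, adjusted p = 1.19e-05). No uterus sample overlapped the others for either gene.
Serpinb2 stood at 8.23, 7.07, 7.90 and 7.85, 4.38 higher (SE 0.82, adjusted p = 5.34e-05), and only lung sample 4 was higher. Serpinf1 (4.08), Serpinb11 (3.06), Serping1 (3.03), Serpinb8 (2.28), Serpina1d (2.10), Serpinb5 (1.30) and Serpinb7 (1.29) were the other higher genes, and Serpinb5 lost its call without uterus sample 4. The lower calls of Serpina11, Serpina6 and Serpind1 were lost without any 1 uterus sample.
The antitrypsin copies parted company in the uterus. Serpina1d stood at 6.10, 7.28, 4.86 and 5.55 and Serpina1c at 2.93, 11.28, 9.13 and 2.96, while Serpina1a stayed between 2.56 and 2.91 in all 4 samples. Serpina1c was thus high in 2 samples and near the floor in 2, and was not called (1.48, SE 0.74, adjusted p = 0.104), though it was called without liver among the reference organs (2.90). The hepatocyte list stood at 3.52, 3.41, 3.80 and 3.31 in the same samples. The fibroblast list averaged 8.7 and the macrophage list 9.95 in uterus cells, and their part in the Serpinh1, Serpinf1 and Serping1 differences was not tested. Among partners, 13 of 42 were higher and 11 lower, led by Plat (tissue plasminogen activator, 4.34), Ctss (2.62) and Plau (urokinase, 2.49).

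Within the liver, neonatal and DDC cells were each set against the same 5 untreated samples. In neonatal liver cells, 3 of 21 serpin genes were higher and 2 lower, beside 22.2% and 8.62% of all 11131 genes. The median was 0.05 over the serpin genes and 0.31 over all genes. Of the antitrypsins 0 of 4 were called by limma and of the inhibitors of clotting, plasmin and complement 0 of 4. Over all roles 4 serpin genes were higher and 2 lower at an unadjusted p under 0.05, with no share over all genes counted. With quantile normalization, 58.7% of all called genes were higher, in place of 72%.
Serpina4-ps1 stood at 2.70, 2.73 and 2.76 in neonatal cells, against 9.74, 9.06, 12.86, 11.91 and 12.46 in untreated cells, a difference of -8.47 (SE 0.45, adjusted p = 9.46e-17). Serpina6, the corticosteroid-binding globulin of plasma, stood at 6.2, 7.99 and 6.07 in neonatal cells, against 9.66, 8.22, 9.98, 10.89 and 10.83 in untreated cells, a difference of -3.16 (SE 0.63, adjusted p = 0.000149). Neonatal samples lay below all untreated samples for both genes.
Serpinh1 stood at 9.50, 9.30 and 9.66 in neonatal cells, against 8.17, 8.92, 5.64, 5.47 and 6.41 in untreated cells, 2.56 higher (SE 0.70, adjusted p = 0.00329). Serpinb1a stood at 7.76, 6.51 and 7.55, against 5.22, 6.37, 4.17, 3.99 and 5.02, 2.32 higher (SE 0.50, adjusted p = 0.000321). The groups do not overlap for either gene, and the nearest untreated values were those of sample 2. Another probe set of Serpinb1a, at 5.27 in neonatal and 4.79 in untreated cells, gave a difference of only 0.48.
Serpinb2 stood at 6.88, 5.37 and 6.76 in neonatal cells, against 2.59, 7.02, 2.19, 2.43 and 2.26 in untreated cells. It was 3.04 higher (SE 1.10, adjusted p = 0.0246), with untreated sample 2 alone as high, and the call was lost when any 1 of 5 samples was left out. Without untreated samples 1 and 2, 5 of 22 serpin genes were higher and 4 lower in neonatal cells, beside 29.3% and 12% of all genes. Serpinb6a at 2.52 and Serpina10 at -1.72 were among the added calls. The neutrophil list stood at 9.48, 7.58 and 9.38 in neonatal cells, against 3.44 to 4.76 in untreated cells, and neonatal sample 2 was the lowest of the 3 for this list, for Serpinb1a and for Serpinb2. The cholangiocyte list averaged 7.8 in neonatal cells and 3.8 in untreated cells. The actin 3′ minus 5′ difference was 0.72 to 0.86 in neonatal cells, against 1.05 to 1.73 in untreated cells. The part of these in the differences was not tested. Among partners, 4 of 36 were higher and 3 lower, led by St14 (matriptase, 3.53), Masp1 (-3.22) and Prss8 (2.81).

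In DDC liver cells, 4 of 20 serpin genes were higher and 4 lower, beside 16.3% and 5.49% of all 10850 genes. With quantile normalization, 59.7% of all called genes were higher, in place of 74.8%. The higher genes were all clade B inhibitors of granule and lysosomal proteases and the lower ones all clade A genes. Serpinb6b stood at 6.73, 7.71 and 8.17 as lowest, median and highest of 9 DDC samples, against 6.57, 6.62, 4.00, 4.41 and 4.20 in untreated cells, 2.42 higher (SE 0.46, adjusted p = 7.87e-05). The groups do not overlap, by a narrow margin set by untreated samples 1 and 2. Serpinb6a (1.88), Serpinb9 (1.38) and Serpinb8 (1.15) were also higher, with overlapping samples, and Serpinb8 lost its call without untreated sample 1, 3 or 4.
Serpina4-ps1 stood at 2.51, 2.80 and 3 as lowest, median and highest of the DDC samples, below all untreated samples, a difference of -8.43 (SE 0.34, adjusted p = 7.1e-20). Serpina11, a clade A serpin made in liver, ran between 4.04 and 8.69 with a median of 7.35 in DDC cells, against 9.22, 8.02, 11.57, 10.83 and 10.50 in untreated cells, a difference of -2.89 (SE 0.53), with untreated sample 2 inside the DDC range. Serpina6 differed by -2.42 (SE 0.48) and Serpina1d by -1.41 (SE 0.44). The lowest DDC values of Serpina11, Serpina6 and Serpina1d came from samples 1, 2 and 5, whose macrophage lists, at 11.09, 11.38 and 10.95, were the highest of the 9. The part of these cells in the differences was not tested.
Without untreated samples 1 and 2, 6 of 21 serpin genes were higher and 9 lower, beside 26.6% and 10.5% of all genes. Serpinh1 (2.02) and Serpinb1a (1.17) were added as higher. Serpinf1 (-1.60), Serping1 (-1.50), Serpina10 (-1.41), Serpinf2 (-1.30) and Serpina3a (-1.14) were added as lower. Among partners, 5 of 35 were higher and 5 lower, led by Prss2 (-2.35), Ctrb1 (-2.20) and Plat (1.57). The pancreatic acinar list stood at 10.6 in untreated sample 1, and its part in the differences of the 2 digestive proteases was not tested.

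**Figure D2:**
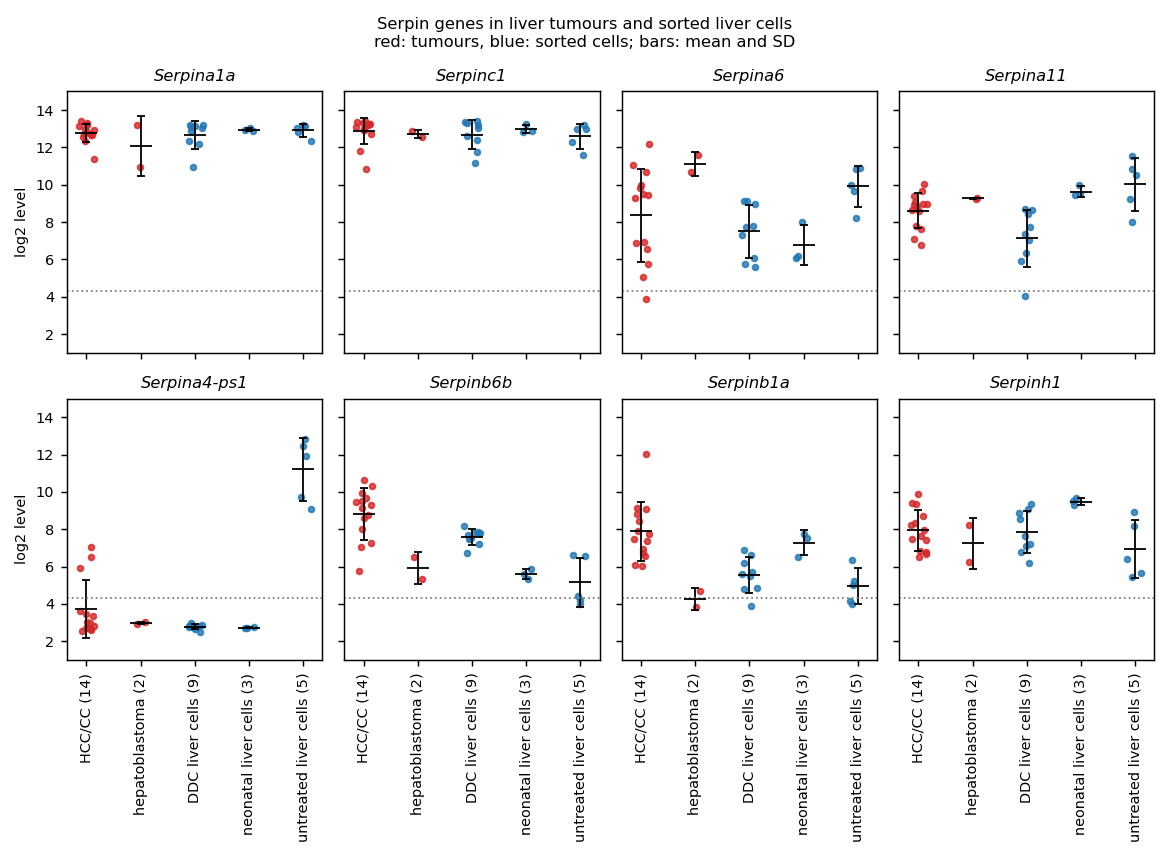
Log2 level of 8 serpin genes in each sample of HCC/CC (14), hepatoblastoma (2), DDC liver cells (9), neonatal liver cells (3) and untreated liver cells (5), with mean and SD; the dotted line at 4.3 is the highest filter value. Serpina4-ps1 is above 9 in untreated liver cells and at most 7.03 elsewhere, while Serpina1a is above 11 in every HCC/CC and untreated sample.

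Tumours were then set against sorted cells of the same organ. In these 5 comparisons the median log2 difference over all genes lay between 0.11 and 0.30 in the deposited values. Quantile normalization brought it to between -0.09 and 0.13. It moved that median by over 0.1 in 3 other comparisons as well: to 0.09 from 0.31 for neonatal liver cells, to 0.07 from 0.25 for DDC liver cells and to -0.07 from 0.08 for uterus cells. Differences in these comparisons are relative to those medians.

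In HCC/CC, 3 of 21 serpin genes were higher and 2 lower than in untreated liver cells, beside 17.6% and 6.27% of all 10943 genes. With quantile normalization, 58.8% of all called genes were higher, in place of 73.7%. Of the secreted plasma serpins, 0 of 4 antitrypsins and 0 of 4 inhibitors of clotting, plasmin and complement were called by limma. Over all roles 5 serpin genes were higher and 3 lower at an unadjusted p under 0.05, with no share over all genes counted. Serpina1a averaged 12.8 in HCC/CC and 12.9 in untreated cells. Serpinc1 averaged 12.9 in HCC/CC and 12.6 in untreated cells.
Serpina4-ps1 stood at 2.55, 3.02 and 7.03 as lowest, median and highest of 14 HCC/CC samples, below all untreated samples, a difference of -7.49 (SE 0.77, adjusted p = 1.84e-06). HCC/CC samples 4, 14 and 9, at 7.03, 6.53 and 5.92, held its highest values. Serpina6 ran between 3.89 and 12.18 in HCC/CC (median 9.37), beyond the untreated range on both sides, and was not called (-1.55, adjusted p = 0.253).
The higher genes were Serpinb6b (3.66, SE 0.65, adjusted p = 0.000256), Serpinb1a (2.93, SE 0.70, adjusted p = 0.00264) and Serpinb9 (1.84, SE 0.46, adjusted p = 0.00332). Serpinb6b ran between 5.76 and 10.66 in HCC/CC (median 9.2), against 4.00 to 6.62 in untreated cells, and Serpinb1a between 6.04 and 12.02 (median 7.61), against 3.99 to 6.37. Both overlap with untreated cells at their low ends, and another probe set of Serpinb1a was 1.60 higher. The highest Serpinb1a, Serpinb6a, Serpinb6b, Serpinb9 and Serpinb9b values of HCC/CC all came from sample 11, at 12.02, 12.11, 10.66, 10.21 and 7.09.
Sample 2 was the lowest HCC/CC in Serpina1a (11.38), Serpina1d (6.82) and Serpinc1 (10.86) and the highest in Serpinb5 (7.73). Samples 2 and 11 also had the highest cholangiocyte lists, 10.6 and 9.74, against 3.56 to 7.76 in the other 12. The kidney tubule list was highest in sample 11, at 6.98. The neutrophil list averaged 6.18 in HCC/CC and 3.94 in untreated cells, and the fibroblast list 6.51 in HCC/CC and 4.78 in untreated cells. The part of these cells and of bile duct cells was not tested. Serpina11 was lower (-1.42, SE 0.52, adjusted p = 0.0329), a call lost without untreated sample 3, 4 or 5. Without untreated samples 1 and 2, 5 of 22 serpin genes were higher and 5 lower, beside 24.1% and 8.16% of all genes. Serpinb6a at 3.03 and Serpinh1 at 2.11 were added as higher. Serpina1d (-1.49, adjusted p = 0.0376), Serpinf2 (-1.20, adjusted p = 0.0293) and Serpina3a (-1.19) were added as lower. Leaving out untreated sample 2 alone gave 8 calls in place of 5. Among partners, 5 of 35 were higher and 4 lower, led by Prss8 (3.94), Plat (3.78) and Prss2 (-2.35).

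In prostatic adenocarcinoma, 3 of 15 serpin genes were higher and 1 lower than in prostate cells, beside 12.4% and 8.71% of all 10936 genes. With quantile normalization the higher share of serpin calls was 50.0%, in place of 75.0%, and of all called genes 44.9%, in place of 58.8%. Serpinb11 stood at 6.42, 7.56 and 8.34 as lowest, median and highest of 8 tumours, against 3.96, 3.23 and 3.28 in prostate cells, 3.92 higher (SE 0.39, adjusted p = 4.09e-05). Serpina3n stood at 7.45, 9.25 and 10.64, against 5.73, 5.34 and 5.14, 3.57 higher (SE 0.64, adjusted p = 0.00148). Serpinb5 stood at 6.15, 7.87 and 8.67, against 5.16, 4.20 and 4.54, 2.91 higher (SE 0.48, adjusted p = 0.000974). All tumours lay above all sorted samples for these 3 genes.
Serpina1f stood at 2.39, 2.56 and 2.81 in the tumours, against 4.33, 7.15 and 9.50 in prostate cells, a difference of -4.44 (SE 0.74, adjusted p = 0.000977). The prostate and seminal vesicle list averaged 6.5 in the tumours, with a range of 3.24 to 10.3, and 13.3 in prostate cells. The fibroblast list ran between 6.36 and 9.15 in the tumours, against 5.32 to 7.06 in prostate cells, and was highest in tumours 6, 5 and 1, which also had the 3 highest Serpina3n values. The smooth muscle list ran between 6.88 and 10.06, against 5.36 to 5.56, and the neutrophil list averaged 6.12 in the tumours and 3.99 in prostate cells. The part of these lists in the 4 differences was not tested. Leaving out prostate sample 1 raised the count of called serpin genes to 7. Among partners, 3 of 24 were higher and 3 lower, led by Plau (-3.70), Plat (3.46) and Cela1 (-3.03).

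In gastric adenoma, 7 of 15 serpin genes were higher and 2 lower than in stomach cells, beside 8.14% and 3.07% of all 10890 genes. With quantile normalization, 49.8% of all called genes were higher, in place of 72.6%. All 5 tested inhibitors of granule and lysosomal proteases were among the higher ones. With 1 of the 2 stomach samples left out, the spread comes from the adenomas alone and the remaining sample is assumed to vary like them, and 5 genes were then called without sample 1 and 3 without sample 2.
Serping1 stood at 7.33, 8.50 and 9.37 as lowest, median and highest of 7 adenomas, against 5.22 and 4.24 in stomach cells, 3.49 higher (SE 0.53, adjusted p = 0.00372). Serpinb6b stood at 5.03, 6.94 and 8.16, against 3.67 and 3.55, 3.41 higher (SE 0.68, adjusted p = 0.0102). Serpinb9 stood at 5.53, 7.19 and 7.74, against 4.51 and 4.97, 2.40 higher (SE 0.51, adjusted p = 0.0134). The groups do not overlap for any of the 3. Serpinb6b and Serpinb9 were not called with either stomach sample alone, and another probe set of Serpinb9 was 1.37 higher.
Serpinb6a (1.46), Serpinb5 (1.45), Serpinb8 (1.22) and Serpinb1a (1.09) were the other higher genes. Their adenomas also lay above both stomach samples, at 10.07 or more against 8.26 and 9.39 for Serpinb6a and 8.26 or more against 7.32 and 8.01 for Serpinb5. Without stomach sample 2 all 4 calls were lost, and Serpinb8 was also lost without sample 1, with quantile normalization, with array weights and with the mean of its probe sets, another of which was 0.74 higher.
Serpinf2 stood at 3.38, 4.05 and 4.36 in adenomas, against 6.33 and 5.61 in stomach cells, a difference of -1.94 (SE 0.31, adjusted p = 0.00435). Serpina1c stood at 2.69, 3.34 and 3.79, against 5.80 and 3.87, a difference of -1.61 (SE 0.45, adjusted p = 0.0375). Adenomas lay below stomach cells for both. Serpina1c was not called with array weights (adjusted p = 0.102) or without stomach sample 1, and stomach sample 2 lay just above its highest adenoma. The fibroblast list averaged 6.45 in adenomas and 4.19 in stomach cells, and the macrophage list 5.36 in adenomas and 4.42 in stomach cells. The smooth muscle list averaged 7.05 in adenomas and 3.97 in stomach cells, and the pancreatic acinar list 3.72 and 7.14. Their part was not tested. Among partners, 5 of 29 were higher and 3 lower, led by Plat (3.97), Ctss (3.29) and C1s1 (3.13).

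In small intestinal adenoma, 5 of 11 serpin genes were higher and 0 lower than in small intestine cells, beside 13.6% and 8.43% of all 11056 genes (limma). At an unadjusted p under 0.05, 6 were higher and 0 lower, with no share over all genes counted. With quantile normalization, 50.0% of all called genes were higher, in place of 61.7%. Serping1 stood at 8.33, 7.40 and 7.28 in adenomas, against 3.86, 3.11 and 2.96 in sorted cells, 4.36 higher (SE 0.38, adjusted p = 0.000693). Serpinb5 stood at 7.72, 8.18 and 8.77, against 4.65, 4.03 and 4.18, 3.94 higher (SE 0.32, adjusted p = 0.000581). The 2 groups are far apart for both genes.
Serpinb11 stood at 6.43, 4.20 and 6.39 in adenomas, against 2.96, 2.80 and 3.03 in sorted cells, 2.74 higher (SE 0.59, adjusted p = 0.0131). Serpinh1 stood at 8.16, 6.88 and 7.40, against 5.46, 4.98 and 4.53, 2.49 higher (SE 0.39, adjusted p = 0.00455). Serpinb9 stood at 6.58, 6.52 and 6.52, against 4.28, 5.36 and 5.76, 1.40 higher (SE 0.38, adjusted p = 0.0297). No gene of these 3 had overlapping samples, and Serpinb9 lost its call when adenoma 1 or 3 or sorted sample 1 or 2 was left out, and with quantile normalization.
The fibroblast list averaged 6.3 in adenomas and 3.9 in sorted cells and the smooth muscle list 8.39 in adenomas and 3.70 in sorted cells, and their part in the Serpinh1 and Serping1 differences was not tested. Among partners, 6 of 27 were higher and 6 lower, led by Plat (7.17), Prss2 (-6.43) and Ctrb1 (chymotrypsinogen, -5.34). The pancreatic acinar list averaged 2.9 in adenomas and 8.7 in sorted cells, and its part in the lower digestive proteases was not tested.

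In uterine carcinoma, 6 of 19 serpin genes were higher and 2 lower than in uterus cells, beside 8.6% and 10.2% of all 10843 genes. Serpinb7, a clade B gene of epidermis whose loss in humans causes a thickening of palm and sole skin, stood at 10.26, 11.55 and 10.85 in carcinomas, against 5.55, 3.60, 2.92 and 4.69 in uterus cells. The difference of 6.69 (SE 0.61, adjusted p = 0.000355) was, after that of Serpina4-ps1 in HCC/CC, the largest of any serpin gene in the 5 comparisons of a tumour with sorted cells. Serpinb11 stood at 12.10, 10.36 and 9.95, against 8.24, 6.70, 6.68 and 7.66, 3.48 higher (SE 0.57, adjusted p = 0.00422).
Serpinb3a and Serpinb12, 2 further squamous clade B genes, did not pass the filter here, and Serpinb5 was not called (0.58, SE 0.75). The keratinocyte list stood at 6.2, 4.66 and 8.56 in the carcinomas and 3.63 to 4.34 in uterus cells. Carcinoma 2 had the lowest list and the highest Serpinb7 of the 3. The macrophage list averaged 7.02 in carcinomas and 9.95 in uterus cells. The part of both lists was not tested.
Serpina1b stood at 6.71, 5.23 and 6.08 in carcinomas, against 2.75, 3.04, 3.16 and 2.70 in uterus cells, 3.09 higher (SE 0.37, adjusted p = 0.00119). Serpina1d stood at 2.59, 3.37 and 2.40, against 6.10, 7.28, 4.86 and 5.55, a difference of -3.16 (SE 0.55, adjusted p = 0.00556). These 2 antitrypsin copies were called in opposite directions, without overlap in either. Serpina1c stood at 9.70, 7.14 and 5.02, against 2.93, 11.28, 9.13 and 2.96, and was not called (0.71, SE 2.20).
Serpinb6b stood at 8.55, 7.13 and 7.87, against 5.46, 5.29, 5.47 and 5.58, 2.40 higher (SE 0.31, adjusted p = 0.00162). Serpinb8 stood at 6.03, 5.95 and 6.15, against 7.70, 7.70, 7.82 and 7.66, a difference of -1.68 (SE 0.15, adjusted p = 0.000299). The groups do not overlap for either gene, and the carcinomas lay close together for Serpinb8.
Serpina11 (7.24, 3.72 and 6.03, against 3.28 to 3.51, 2.28 higher, adjusted p = 0.0441) and Serpinb9b (5.56, 5.82 and 3.83, against 2.96 to 3.47, 1.89 higher, adjusted p = 0.0223) were the least stable. Serpina11 lost its call when any sample but carcinoma 2 was left out, with no filter and with median centring, and Serpinb9b without carcinoma 1 or 2 or uterus sample 2 or 3. Among partners, 1 of 26 was higher and 8 lower, led by Klk1 (-7.41), Hgfac (-3.14) and Plau (-2.33).

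**Figure D3:**
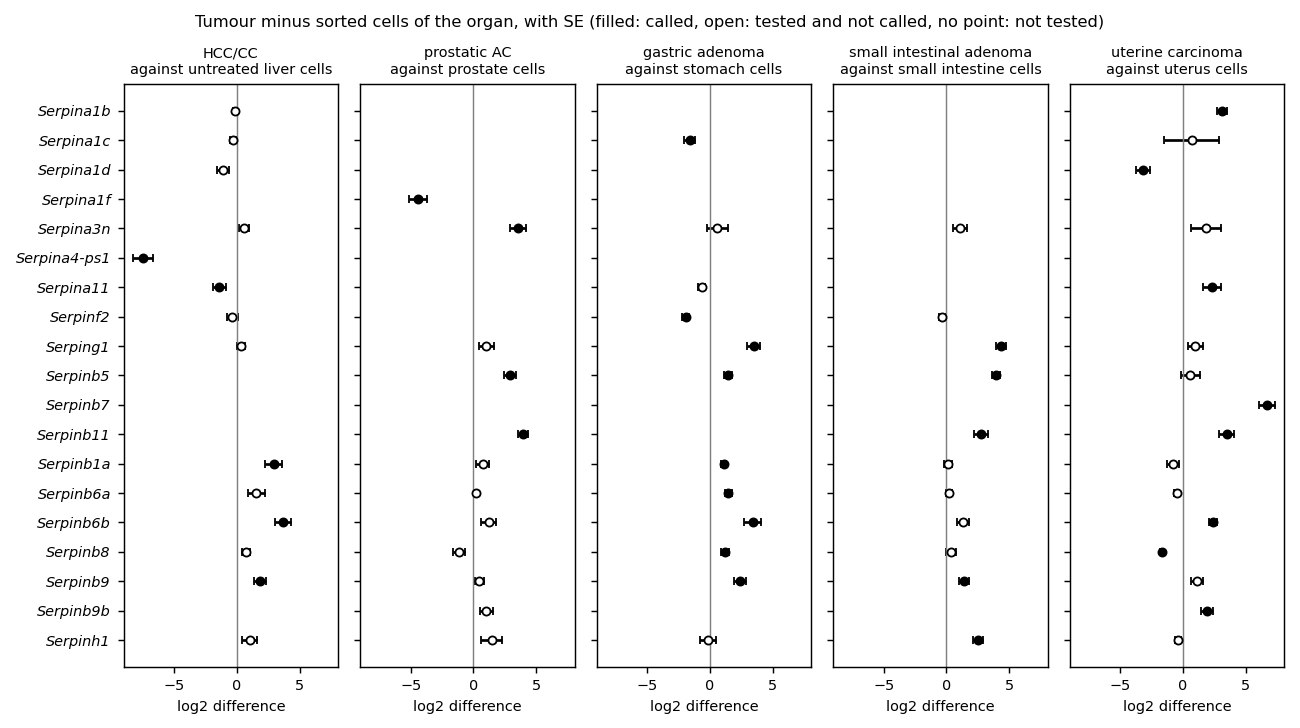
Log2 difference (tumour minus sorted cells of its organ, with SE) of every serpin gene called in at least 1 of 5 comparisons; filled points are called, open points tested and not called, and no point means not tested. Serpinb11 is to the right in 3 panels, Serpina4-ps1 lies at -7.49 for HCC/CC, and Serpina1b and Serpina1d lie on opposite sides of 0 for uterine carcinoma.

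Tumours were also compared with each other, all dissected and extracted alike. HCC/CC was set against the mean of the prostatic, gastric, uterine and lung carcinomas. Of 27 serpin genes, 13 were higher and 4 lower, beside 12% and 16.8% of all 11971 genes, and the medians were 0.85 over the serpin genes and -0.24 over all genes.
All 4 inhibitors of clotting, plasmin and complement and all 4 tested antitrypsins were higher. Serpinc1 stood at 10.86, 13.14 and 13.43 as lowest, median and highest of 14 HCC/CC samples, against 3.03, 3.33 and 6.42 in 17 others, 9.08 higher (SE 0.26, adjusted p = 1.63e-32). Serpina10 stood at 10.08, 10.94 and 11.73, against 2.88, 3.24 and 4.27, 7.34 higher (SE 0.16, adjusted p = 1.85e-37). Serpina1d stood at 6.82, 9.83 and 11.32, against 2.35, 2.5 and 5.44, 6.98 higher (SE 0.30). The groups do not overlap for any of them.
Serpina1a, Serpina1b and Serpina1c were 8.91, 7.72 and 8.31 higher, also without overlap, though single tumours of the other kinds came close. The highest were a gastric adenocarcinoma at 10.30 for Serpina1a and 11.36 for Serpina1b, and a uterine carcinoma at 9.70 for Serpina1c. Serpinb9g, a relative of Serpinb9, was 1.92 higher (SE 0.42) and was above 6 in 5 of the 14 HCC/CC samples (1, 5, 6, 7 and 8) and between 2.66 and 4.78 in the other 9. Another probe set of Serpinb9g was only 0.50 higher, at 3.17 in HCC/CC and 2.67 in the others, both under the filter. The lower genes were Serpinb11 (-2.86), Serpinb5 (-2.59), Serpinb7 (-1.98) and Serpinh1 (-1.97). Among partners, 21 of 41 were higher and 6 lower, led by Vtn (8.78), Plg (8.74) and F2 (8.62).

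Squamous cell carcinomas of perineal and perioral skin were set against the mean of the 5 internal carcinoma groups, HCC/CC included. Of 30 serpin genes, 10 were higher and 14 lower, beside 10.7% and 13.8% of all 12319 genes. All 5 squamous clade B genes were higher, with a median of 5.28, and the inhibitor of plasminogen activators Serpinb2 was higher too. All 4 antitrypsins and all 4 inhibitors of clotting, plasmin and complement were lower, a direction that the HCC/CC samples within the internal mean feed into.
Serpinb3a, a mouse kin of the human squamous cell carcinoma antigens stood at 11.08, 10.4, 10.39 and 9.89 in perineal and 11.23, 10.98 and 10.58 in perioral tumours, against 2.51, 2.83 and 3.62 as lowest, median and highest of 31 internal tumours. It was 7.84 higher (SE 0.11, adjusted p = 4.33e-46). Serpinb12 stood at 8.58, 6.64, 8.19 and 5.86 in perineal and 9.03, 7.80 and 7.54 in perioral tumours, against 2.42, 2.61 and 2.97, 5.04 higher (SE 0.18, adjusted p = 7.13e-29). No internal tumour was above 3.62 for these 2 genes.
Serpinb2 stood at 10.02, 9.84, 10.46 and 9.47 in perineal and 10.10, 9.92 and 10.98 in perioral tumours, against 2.36, 2.73 and 7.84, 6.48 higher (SE 0.50, adjusted p = 1.69e-15). Serpinb5 stood at 11.31, 11.06, 11.54 and 11.13 in perineal and 11.64, 11.87 and 12.07 in perioral tumours, against 2.72, 5.14 and 8.67, 5.75 higher (SE 0.41, adjusted p = 1.07e-16). Squamous tumours lay above all internal ones for both genes, while several internal tumours had clear levels of them.
Serpinb8, an inhibitor of furin-like proteases, stood at 8.06, 9 and 9.39 as lowest, median and highest of 7 squamous tumours, against 3.70, 5.40 and 6.31, 3.75 higher (SE 0.23, adjusted p = 4.38e-19) and 2.49 higher by another probe set. Serpinb6c stood at 3.60, 5.6 and 6.47, against 2.47, 2.69 and 3.06, 2.67 higher (SE 0.13). Both were without overlap, and the lowest Serpinb6c values were under the filter. Serpinb11 (5.28), Serpina9 (4.22), Serpinb1a (2.44) and Serpinb7 (2.24) were higher with overlap. Serpina3n (-1.36), Serpinb9b (-1.07) and Serpina11 (-1.12) lost their lower calls when single tumours were left out: perineal 2 or 3 or perioral 3 for Serpina3n, gastric adenocarcinoma 3 or perioral 3 for Serpinb9b, and lung adenocarcinoma 2 or uterine carcinoma 1 for Serpina11. Serpinb7 and Serpinb11 reached their highest internal values, 11.55 and 12.10, in uterine carcinoma.
Perineal sample 4 was the lowest squamous tumour in Serpinb3a, Serpinb12, Serpina9 and Serpinb7, at 9.89, 5.86, 4.13 and 3.25. The periorbital tumour, alone in its group and outside the test, stood at 10.63 for Serpinb3a, 10.16 for Serpinb2, 11.71 for Serpinb5, 11.36 for Serpinb11 and 7.48 for Serpinb12, within the range of the other 7 but for Serpinb11, which was above it.
Serpinb9 stood at 4.47, 5.69 and 6.22 in squamous tumours, against 6.65, 7.93 and 10.21 in internal ones, a difference of -2.45 (SE 0.32, adjusted p = 7.06e-09), with every squamous tumour below every internal one. Serpinb6b differed by -3.96 (SE 0.44, adjusted p = 1.08e-10). The macrophage list averaged 6.1 in both squamous groups and 7.0 to 7.9 in the internal groups, and its part was not tested. Among partners, 7 of 45 were higher and 20 lower. The skin kallikreins Klk7 (8.04), Klk8 (7.23) and Klk6 (6.97), which cut proteins between cells of the outer epidermis, led the list.

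**Figure D4:**
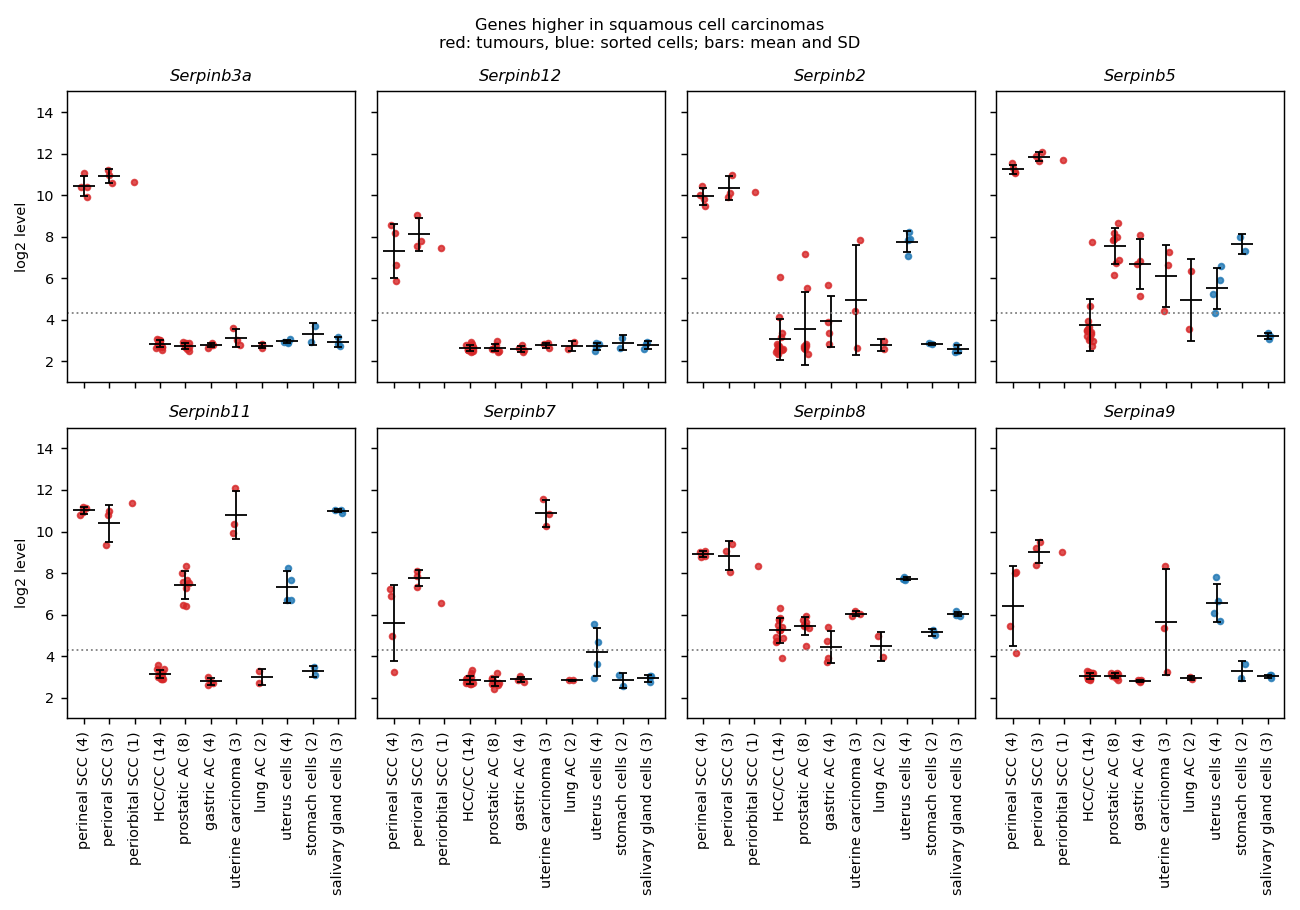
Log2 level of 8 serpin genes in each sample of 3 squamous, 5 internal carcinoma and 3 sorted-cell groups, with mean and SD; the dotted line is at 4.3. Serpinb3a and Serpinb12 stand apart in the squamous groups, Serpinb11 is also high in uterine carcinoma and salivary gland cells, and Serpinb7 is highest in uterine carcinoma.

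Hepatoblastoma, with 2 tumours, was set against HCC/CC. Of 20 serpin genes, 0 were higher and 2 lower, beside 3.28% and 2.85% of all 10695 genes (limma). At an unadjusted p under 0.05, 1 was higher and 4 lower, with no share over all genes counted. Serpinb1a stood at 3.83 and 4.68 in hepatoblastoma, against 6.04, 7.61 and 12.02 as lowest, median and highest of HCC/CC, a difference of -3.63 (SE 0.76, adjusted p = 0.00111). Both hepatoblastomas lay below every HCC/CC. Serpinb6b stood at 6.51 and 5.31, a difference of -2.91 (SE 0.74, adjusted p = 0.00764), within the HCC/CC range for sample 1. Another probe set of Serpinb1a differed by -2.27. With the group reduced to 1 tumour, which is then assumed to vary like the other tumour groups, Serpinb1a was not called without sample 1 (-3.20, adjusted p = 0.0567), nor Serpinb6b without sample 2 (-2.31, adjusted p = 0.134) and with array weights (adjusted p = 0.136). Serpina6 stood at 11.59 and 10.66 in hepatoblastoma, against 3.89 to 12.18 in HCC/CC, and was not called (2.76, SE 1.0, adjusted p = 0.07). Among partners, 1 of 32 was higher, Tmprss2 (1.98), and 1 lower, St14 (-2.41).

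In gastric adenocarcinoma, 10 of 17 serpin genes were higher and 3 lower than in gastric adenoma, beside 13.8% and 11.5% of all 10873 genes. The medians were 1.56 over the serpin genes and 0.10 over all genes. The higher genes came from 5 roles, and the 3 lower ones were all clade B.
Serpinf1 stood at 9.15, 10.29, 8.97 and 8.35 in adenocarcinomas, against 3.75, 4.97 and 7.48 as lowest, median and highest of 7 adenomas, 3.83 higher (SE 0.69, adjusted p = 1.38e-05). Serpinb6b stood at 9.94, 10.00, 10.67 and 9.81, against 5.03, 6.94 and 8.16, 3.08 higher (SE 0.62, adjusted p = 7.25e-05). Serpini1, neuroserpin, an inhibitor of tissue plasminogen activator, stood at 5.21, 7.25, 6.13 and 5.55, against 3.55, 4.17 and 4.69, 2.01 higher (SE 0.31, adjusted p = 8.73e-07). Groups do not overlap for any of the 3, and Serpini1 was called in no other comparison. Of its other probe sets, 1 above the filter was 1.05 higher and 1 below it differed by -0.02.
Serpinh1 (8.99 to 10.51 against 6.86 to 8.93, 1.87 higher), Serpinb9 (8.18 to 9.67 against 5.53 to 7.74, 1.56 higher) and Serping1 (9.38 to 10.22 against 7.33 to 9.37, 1.55 higher) were also higher, without overlap but by narrow margins.
The antitrypsins turned on single tumours. Serpina1a stood at 2.73, 10.30, 2.52 and 4.88 in adenocarcinomas, against 2.60, 2.81 and 3.61 in adenomas, and Serpina1b at 3.54, 11.36, 4.22 and 7.81, against 2.79, 3.37 and 5.42. Adenocarcinoma 2 held the top value of both, and without it Serpina1b lost its call (1.34, adjusted p = 0.0589). Serpind1, heparin cofactor II, stood at 3.83, 6.79, 3.21 and 7.34, against 2.68 to 3.39, 2.12 higher (SE 0.50). Serpinc1 stayed between 3.07 and 3.45 in the same 4 tumours, and the hepatocyte list at 3.85 to 5.19, against 4.42 to 7.24 in adenomas. That list also stood at 7.28 to 7.44 in sorted small intestine cells, so in gut samples it does not mark hepatocytes alone.
Serpinb8 stood at 3.70, 4.71, 5.40 and 3.89 in adenocarcinomas, against 5.58, 6.44 and 6.80 in adenomas, a difference of -1.94 (SE 0.33, adjusted p = 4.87e-06). Serpinb5 stood at 8.10, 5.14, 6.69 and 6.84, against 8.26, 9.29 and 9.45, a difference of -2.42 (SE 0.58, adjusted p = 0.000741). Serpinb1a stood at 9.22, 7.69, 9.11 and 7.89, against 10.55, 11.05 and 11.27, a difference of -2.47 (SE 0.63, adjusted p = 0.00133). All adenocarcinomas lay below all adenomas for these 3 genes.
The fibroblast list stood at 7.19 to 8.21 in adenocarcinomas and 5.56 to 7.35 in adenomas, the macrophage list at 7.34 to 8.27 in adenocarcinomas and 4.24 to 6.33 in adenomas, and the gastric list averaged 7.12 in adenocarcinomas and 10.98 in adenomas. The enterocyte list averaged 4.71 in adenocarcinomas and 8.81 in adenomas. Their part in these differences was not tested. Serpinb9b (1.82 higher) lost its call without adenocarcinoma 3. Among partners, 13 of 32 were higher and 6 lower, led by Klk1 (-5.11), St14 (-3.38) and Prss8 (-3.29).

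**Figure D5:**
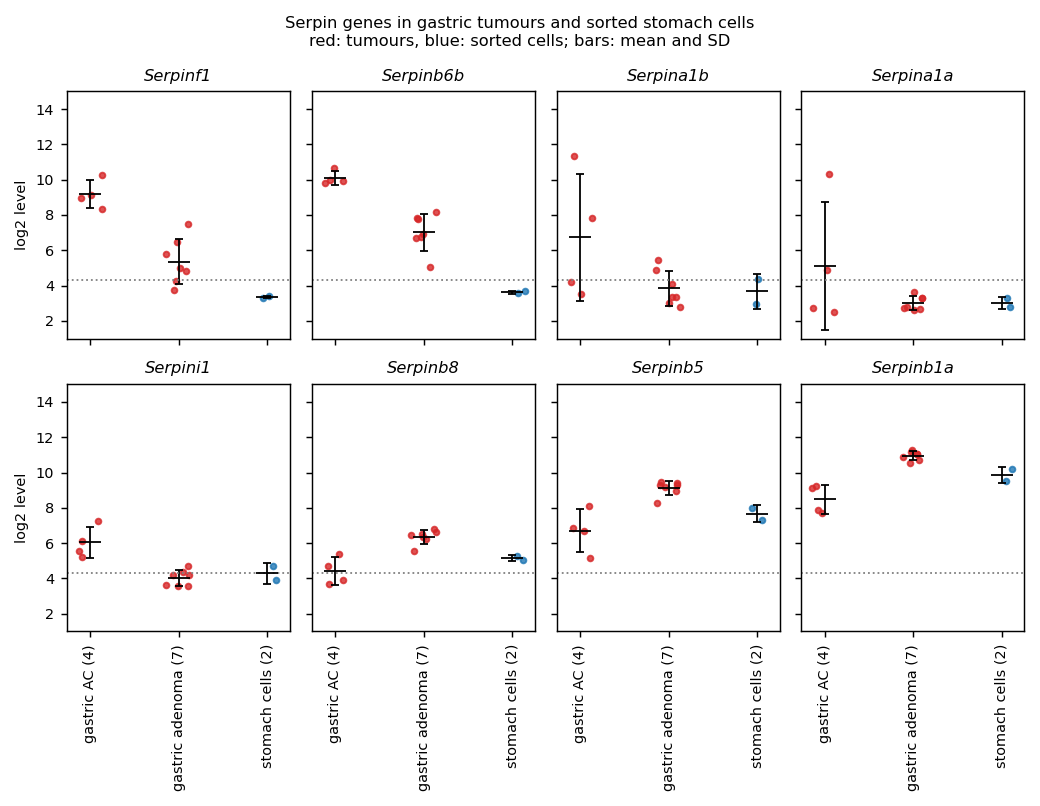
Log2 level of 8 serpin genes in each sample of gastric adenocarcinoma (4), gastric adenoma (7) and stomach cells (2), with mean and SD; the dotted line is at 4.3. Serpinf1, Serpinb6b and Serpini1 are higher in every adenocarcinoma than in every adenoma, Serpinb8, Serpinb5 and Serpinb1a lower, and Serpina1a and Serpina1b are widely spread in adenocarcinoma.

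In large intestinal adenoma, 5 of 16 serpin genes were higher and 1 lower than in small intestinal adenoma, beside 6.64% and 6.37% of all 10758 genes. Serpina1b stood at 7.63, 6.61, 5.11, 7.33 and 7.54 in large intestinal adenomas, against 2.75, 2.96 and 2.86 in small intestinal ones, 3.99 higher (SE 0.82, adjusted p = 0.000576). Serpina1c stood at 3.68, 7.57, 4.21, 7.09 and 4.26, against 3.13, 3.13 and 2.80, 2.34 higher (SE 0.84, adjusted p = 0.0406), and this call was lost when any 1 of 5 samples was left out, namely large intestinal adenoma 2 or 4 or any of the 3 small intestinal ones. The groups do not overlap for either gene, and for Serpina1c adenomas 2 and 4 were well above the rest.
Serpinf1 stood at 7.75, 7.54, 8.15, 7.48 and 5.19, against 4.43, 3.75 and 3.69, 3.26 higher (SE 0.80, adjusted p = 0.00328) and 1.59 higher by another probe set. Serping1 stood at 9.2, 9.24, 10.25, 9.95 and 9.30, against 8.33, 7.40 and 7.28, 1.92 higher (SE 0.52, adjusted p = 0.00698). Serpinb11 stood at 3.16, 2.84, 3.21, 2.97 and 2.85, against 6.43, 4.20 and 6.39, a difference of -2.67 (SE 0.39, adjusted p = 2.11e-06). The large intestinal adenomas lay above the small intestinal ones for the first 2 genes and below them for Serpinb11.
Serpina3n was 2.73 higher (SE 0.85, adjusted p = 0.0183), with overlap. Without small intestinal adenoma 3, only 3 of the 6 calls were left, Serpina1c, Serpina3n and Serping1 being lost, and Serpina3n was also lost without small intestinal adenoma 2. The hepatocyte list stood at 7.05, 6.6, 6.46, 7 and 3.75 in the 5 large intestinal adenomas and 4.76 to 6.28 in the others, and the fibroblast list averaged 7.61 in large and 6.29 in small intestinal adenomas. Their part was not tested. Adenoma 5, with the lowest hepatocyte list, had a Serpina1b level of 7.54. The hepatocyte list also stood at 7.28 to 7.44 in sorted small intestine cells, so in gut samples it does not mark hepatocytes alone. Among partners, 7 of 24 were higher and 1 lower, led by Plat (-3.40), Klk1 (3.24) and Agt (2.87).

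Across the 20 comparisons, 33 of the 39 serpin genes were called at least once, and each gene that passed the filter anywhere was called somewhere. A gene passes the filter through a group in which it is high, so being tested and being called are not independent. No such count was made over all genes. Serpinb11 was called in all 14 comparisons in which it was tested, Serping1 in 13 of 20 and Serpinb6b in 12 of 20. In the organ comparisons Serpinb11 passed the filter only through salivary gland and uterus cells, and its lower calls in other organs come from these 2. For 12 genes another probe set was on the array, and of the 82 calls that could be compared, 81 had the same sign there. The difference there was at times smaller and at times larger, and not every such case is given above. Serpinb5 in salivary gland cells differed there by -0.27 in place of -1.34, and Serpinb8 in DDC liver cells by 0.51 in place of 1.15. The remaining 1, that of Serpini1 in gastric adenocarcinoma, had the opposite sign in a probe set below the filter. The probe sets read for 11 genes, among them Serpina1a, Serpina1b, Serpina1d, Serpina4-ps1 and Serpinb9g, are of types that may bind RNA of close relatives, and 9 of these genes have no other kind on the array, so differences among antitrypsin copies are uncertain to that extent.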

How the data were processed

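RNA of dissected mouse tumours and of cells sorted with anti-Prominin1 beads was hybridised to Affymetrix arrays. The log2 values were used as deposited: Partek 6.6 is named in the submitters' processing notes, while background correction and normalization were not stated in these sources. Of 45141 probe sets, 28898 carried 1 gene symbol, which gave 17097 genes after the probe set with the highest mean was kept for each; probe sets with several genes (551), with none in the annotation (15588) and controls (104) were left out. Groups came from the labels. The linear models were run with limma 3.58.1 under R 4.3.3 (lmFit, eBayes with trend, Benjamini-Hochberg adjustment over all genes tested) and were tested on simulated data. Sorted groups shared 1 fit and primary tumour groups of 2 or more samples another, while a tumour against sorted cells was fitted on these 2 groups alone. A gene was tested above the 40th percentile of group means and called at an adjusted p under 0.05 and a log2 difference of at least 1. Counts at an unadjusted p under 0.05 are of serpin genes only, and no share over all genes was counted beside them. The number of arrays limits the precision. Described in full are, in each comparison, up to 6 called members with the largest increase and up to 4 with the largest decrease whose samples do not overlap, and for each role the member with the widest span of group means; up to 3 partner genes with the largest called differences are named. The members, the partner and marker lists and the tests were chosen with earlier results of these data known. Alternatives were a filter at the 60th percentile or none, quantile normalization, median centring, array weights, averaging all probe sets of a gene, no probe sets of types x, s and a, only the samples compared in the fit, and leaving out each replicate in groups of 2 to 5. Chosen after seeing the data were leaving liver out of the other organs' mean and leaving out untreated liver samples 1 and 2.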

Additional observations from a re-analysis of the deposited data

Results flagged for a closer look

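In 5 of 60 gene-and-group sets of 4 to 10 samples, 1 sample lay far from the rest, and chance alone flags about 1 in 20 such sets. Untreated liver sample 2 was low for Serpina1b, at 12.8, and for Serpina1c, at 13.23, while the other 4 samples lay between 13.44 and 13.64 and between 13.70 and 13.81. The same sample had the highest macrophage list of the group, 10.38, and the lowest hepatocyte list, 10.93. Gastric adenoma 4 was low for Serpinb9, at 5.53, against 7.05 or more in the other 6, and for Serpinb5, at 8.26, against 8.95 or more. The same sample had the highest gastric list of the 7, 13.04, and the highest pancreatic acinar list, 6.16. In large intestinal adenoma, sample 5 was low for Serpinf1, at 5.19, against 7.48 or more in the others.

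Genes already called in opposite directions in 2 tumour comparisons were looked up for the gap between their differences, fitted as a difference of differences with limma. Of these, 2 genes had an adjusted p under 0.05. Because the opposite calls came first, these p-values add no separate support. Genes without opposite calls were not looked up, so the count is not that of all genes that differ between organs. Serpina11 differed by -1.42 in HCC/CC against untreated liver cells and by 2.28 in uterine carcinoma against uterus cells, a gap of -3.7 (SE 0.73, adjusted p = 0.000161). Serpinb8 differed by 1.22 in gastric adenoma against stomach cells and by -1.68 in uterine carcinoma against uterus cells, a gap of 2.9 (SE 0.63, adjusted p = 0.00117). Both single differences of Serpina11, and the gastric one of Serpinb8, lost their calls when single samples were left out. The part of extraction and dissection in these gaps was not tested.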

How the results depend on the processing

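None of the 224 called serpin differences turned its direction in any alternative planned beforehand. The alternatives chosen after seeing the data are not part of this count or of the lost calls below. Without liver in the mean, the difference of Serpina1b in salivary gland cells turned from lower to slightly higher. Of these, 27 lost their call in at least 1 alternative that keeps all samples and 53 with 1 replicate left out. Of the 76 described in full, 5 and 11 did. With the filter at the 60th percentile, the count for uterine carcinoma was 4. Without probe sets of types x, s and a, which leaves 30 of the 39 genes, the counts were 10 for kidney, 9 for lung, 7 for salivary gland and 9 for small intestine cells, 3 for small intestinal adenoma and 11 for HCC/CC against the other internal carcinomas. With array weights they were 10 for neonatal liver cells, 8 for HCC/CC against untreated liver cells and 1 for hepatoblastoma. Without liver in the mean (chosen after seeing the data) they were 4 for prostate, 6 for salivary gland and 9 for small intestine cells. Without untreated liver samples 1 and 2 (also chosen after seeing the data) they were 9 for neonatal cells, 15 for DDC cells and 10 for HCC/CC. With single replicates left out, the count ran between 11 and 18 for small intestine cells (17 with all samples), 4 and 8 for HCC/CC against untreated liver cells (5), 4 and 7 for prostatic adenocarcinoma (4), 3 and 5 for gastric adenoma (9), 1 and 2 for hepatoblastoma (2) and 3 and 6 for large intestinal adenoma (6). The causes were not tested, apart from the fewer genes or samples that an alternative holds. No paired analysis was possible because the labels give no replicate numbers shared between groups. Groups of 1 to 3 arrays limit the precision most, and levels near 4 are close to background.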

Other observations

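The 7 metastases, each alone in its group, were not tested. The uterine carcinoma metastases of abdomen and liver stood at 13.05 and 11 for Serpinb11, 9.64 and 7.98 for Serpinb7, 9.15 and 9.77 for Serpinb5 and 8.11 and 8.52 for Serpinb2. Serpinb3a stood at 6.69 and 4.54 in them, against at most 3.62 in the 3 primary uterine carcinomas. Serpina1c stood at 11.30 and 11.93. Serpina1a stood at 2.47 in the abdominal and 11.21 in the liver metastasis, and Serpinc1 at 3.31 and 11.51, while the hepatocyte list stood at 3.13 and 10.19 in the same samples.

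The HCC/CC metastases of intestine and lung stood at 12.20 and 12.87 for Serpinb1a, 12.19 and 12.27 for Serpinb6a, 10.43 and 10.99 for Serpinb6b and 10.21 and 10.61 for Serpinb9. The highest of the 14 primary HCC/CC tumours stood at 12.02, 12.11, 10.66 and 10.21 for these 4 genes, all in sample 11. The cholangiocyte list stood at 8.6 and 9.63 in the metastases, and the kidney tubule list at 6.47 and 7.39. Serpinc1 stood at 11.58 and 9.40, and Serpina4-ps1 at 2.98 and 2.40.

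The gastric adenocarcinoma metastases of abdomen and liver stood at 9.18 and 7.93 for Serpina1b, 7.71 and 5.78 for Serpina1a, 6.46 and 5.81 for Serpind1, 10.03 and 10.22 for Serpinf1 and 5.67 and 5.99 for Serpini1. Serpinc1 stood at 3.23 and 3.38, and the hepatocyte list at 3.62 and 5.30. The hepatoblastoma metastasis of the lung had the highest Serpina6 value of any tumour, 12.46.

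The lung adenocarcinomas had no fit of their own. The 2 tumours stood at 2.61 and 6.93 for Serpina1a, 5.11 and 7.75 for Serpina1b and 2.89 and 7.85 for Serpina1c, so that tumour 2 was the higher for all 3 copies. Tumour 2 was also the higher for the hepatocyte list, at 6.47 against 4.13, and the part of this was not tested.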
